A study of Mus musculus with 14 samples.

Results

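The comparison described here is that of mouse cortical neurons carrying the S1382A mutation of BRG1 with neurons of their wild-type littermates, both after 1 h of depolarisation with 50 mM KCl. It uses 4 of the 14 RNA-seq libraries of the series: S1382A libraries 1 and 2 and wild-type libraries 1 and 2, chosen by their labels. All neurons came from E16.5 embryos and were silenced on day 5 in vitro with 1 µM TTX, a blocker of sodium channels, and 100 µM APV, a blocker of NMDA receptors, before KCl was added on day 6. Basal libraries of the same genotypes, 2 of each, were kept at a basal level of KCl, under the same protocol in the labels. The series also holds S1382E neurons with their own wild type (2 S1382E libraries and 1 wild-type library after KCl), which are used below only for comparison. The labels do not state whether S1382A was homozygous, how many embryos went into a culture, or whether libraries of 1 group came from separate cultures. The p-values therefore rest on a spread between libraries, estimated over all 14 of the series, which may be partly technical. A KCl library and a basal library with the same genotype and number are written of as 1 culture, a link that the labels leave unstated.

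BRG1, encoded by Smarca4, is an ATPase that powers the BAF chromatin remodelling complexes, which slide and evict nucleosomes at promoters and enhancers. In neurons, calcium entry after depolarisation activates kinases that phosphorylate transcription factors such as CREB and the partners of SRF, and immediate early genes such as Fos, Npas4 and Arc are transcribed within minutes. The products of these genes then switch on delayed genes for synaptic and secreted proteins. An alanine in place of this serine cannot be phosphorylated, and the comparison asks whether neurons that carry the mutation respond to depolarisation with different transcripts. These RNA data do not show whether the serine was phosphorylated in wild-type neurons.

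The 4 libraries were of nearly equal depth, at 22744510 to 22948613 estimated counts and 25226 to 25727 detected gene symbols, so that 1 CPM (counts scaled to library size) stood for about 22.9 counts. Wild-type library 1 stood apart from the other 3. Over 14551 genes with a mean of at least 1 CPM, S1382A library 2 and wild-type library 2 differed by a median of 0.17 on the log2 scale, with 123 genes at least 2-fold apart. The 2 S1382A libraries differed by 0.17 (297 genes), and S1382A library 1 and wild-type library 2 by 0.20 (243 genes). Wild-type library 1 lay farther from all of them, at 0.26 from the other wild-type library (1096 genes), 0.29 from S1382A library 2 (1054 genes) and 0.34 from S1382A library 1 (1977 genes). It was the highest of the 4 libraries for 35.8% of genes and the lowest for 35.4%. Each group held 1 culture with the female transcript Xist (483 CPM in S1382A library 1 and 747 in wild-type library 2) and 1 with the Y-linked gene Ddx3y (53.8 in S1382A library 2 and 56.9 in wild-type library 1). Most genes described singly below are given by library, and many differences are also given without wild-type library 1.

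No gene passed the main test of S1382A against wild type after KCl. With edgeR's quasi-likelihood test, 0 of 17732 genes (0%) had an adjusted p under 0.05 in either direction, and the lowest adjusted p was 0.299. At an unadjusted p under 0.05 there were 839 genes higher in S1382A (4.73%) and 1201 lower (6.77%). Both S1382A libraries lay above both wild-type libraries for 4224 genes (23.8%) and below them for 3388 (19.1%), and the counts of list members given below are to be read against these shares. The median log2 difference over all genes was 0.0061. DESeq2 called 81 genes, 3 higher and 78 lower, and limma called 3 on log2(TPM + 1), all unnamed gene models, and 0 on log2(TPM + 0.1). A replicate block that joined the libraries of like sex, chosen after seeing the data, called 221 genes in edgeR, 20 higher and 201 lower, some of which are described below with their adjusted p from the test without it. Without wild-type library 1 edgeR called 0 genes, with 171 higher (0.969%) and 635 lower (3.6%) at an unadjusted p under 0.05. In what follows "higher" and "lower" describe where the libraries lay, and every adjusted p is from edgeR and above 0.05 unless another tool is named.

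Transcripts of the BAF complex, the machine that carries the mutation, were close to equal in the 2 genotypes. Smarca4 was at 418 and 384 CPM in S1382A and at 383 and 373 CPM in wild type (log2 difference 0.09 ± 0.12, SE; adjusted p = 0.766). The mutation replaces 1 amino acid, and the level of Smarca4 transcript cannot show which genotype a library had. Of 28 measured subunits 15 were higher and 13 lower, with a median of 0.0036 that was -0.08 with library totals, -0.13 on log2(TPM + 1) and -0.0023 with offsets for transcript length. For all 28 the 95% interval of the difference lay within 2-fold in both directions. The subunit with the lowest p was Pbrm1, which encodes the bromodomain protein BAF180 of the PBAF form of the complex. It was at 59.3 and 66.1 CPM in S1382A and at 101 and 92.3 CPM in wild type. Both mutant libraries lay below both wild-type libraries, for a log2 difference of -0.62 ± 0.14 (adjusted p = 0.299), and of -0.56 without wild-type library 1. DESeq2 called Pbrm1. Arid2, another PBAF subunit, was also lower (66.6 and 64.5 against 73.4 and 79.1 CPM; -0.22 ± 0.12). Ss18, a subunit of the canonical BAF form, was at 29.9 and 38.8 against 44.9 and 38.9 CPM, and Actl6b, the neuronal actin-like subunit BAF53b, at 105 and 82.1 against 78.1 and 77.0 CPM.

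The immediate early genes reached close levels in S1382A and wild-type neurons, with differences no larger than about their standard errors. Npas4, an activity-dependent transcription factor, stood at 509 and 517 CPM in S1382A and at 545 and 487 CPM in wild type (log2 -0.0071 ± 0.16). Fos, a subunit of the AP-1 transcription factor, stood at 455 and 421 against 500.2 and 413 CPM (-0.06 ± 0.24). Fosb, of the same family, stood at 456 and 416 against 385 and 428 CPM (0.10 ± 0.21). In these 3 genes the groups overlapped, and wild-type library 1 was the highest for Npas4 and Fos and the lowest for Fosb. Arc, which encodes a postsynaptic protein of AMPA receptor trafficking, was at 101 and 75.8 against 84.3 and 78.3 CPM (0.12 ± 0.18). Egr1, a zinc finger transcription factor, was at 527 and 455 against 429 and 459.8 CPM (0.14 ± 0.14). Nr4a1, an orphan nuclear receptor, was at 645 and 578 against 651 and 554 CPM (0.02 ± 0.14). The 6 genes all stood far above their basal levels in every culture, Npas4 for example at no more than 2.31 CPM at basal, as the plot of activity-induced genes shows.

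**Figure D1:**
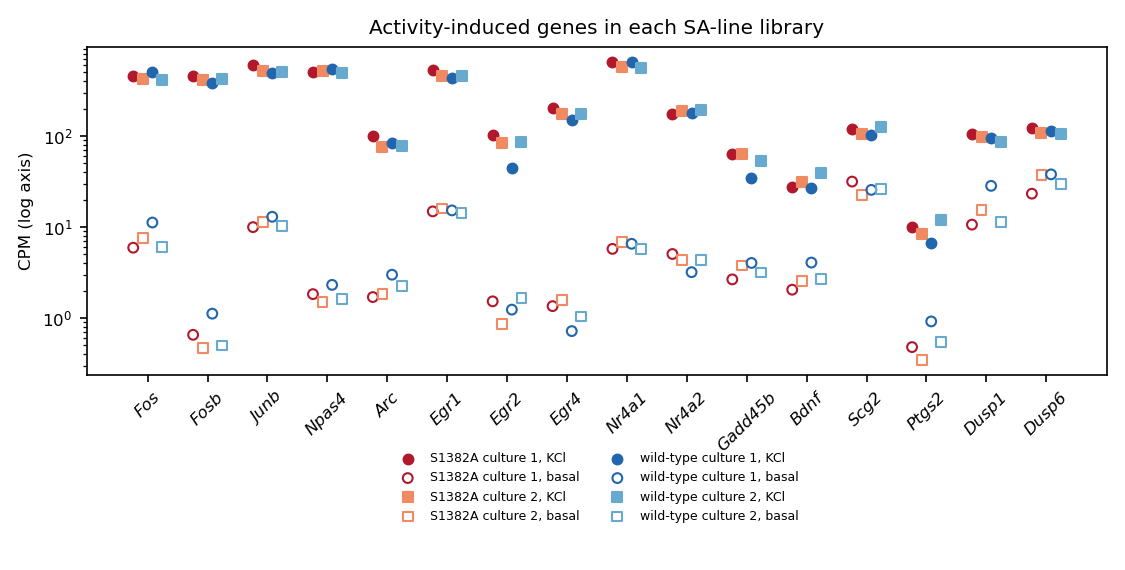
CPM (log axis) of 16 activity-induced genes in the 8 libraries of the S1382A line, with KCl libraries as filled and basal libraries as open markers, red and orange for S1382A and blue for wild type. The filled markers of the 2 genotypes lie close together for most genes. Wild-type culture 1 lies lower for Egr2 and Gadd45b, and for Ptgs2 the wild-type cultures lie apart, at 6.64 and 11.8 CPM.

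Over the 30 immediate early genes 15 were higher and 15 lower in S1382A, with a median log2 difference of 0.0083 beside 0.0061 for all genes, and 1 of 30 had an unadjusted p under 0.05. For 23 of the 30 the 95% interval of the difference lay within 2-fold. That 1 gene was Gadd45b, which acts in DNA demethylation and in stress kinase signalling. It was at 63.0 and 63.8 CPM in S1382A and at 34.9 and 53.2 CPM in wild type (0.53 ± 0.20, adjusted p = 0.396). Wild-type library 1 was the low one, and without it the difference was 0.25. Egr2, a zinc finger factor, followed the same order with 102 and 82.8 against 44.7 and 86.1 CPM (0.50 ± 0.28), and wild-type library 2 lay between the mutant libraries. Without wild-type library 1 the list had 22 genes higher and 8 lower, at a median of 0.08. With libraries scaled by their totals alone, or on the TPM scale, the list's median was -0.08 and -0.11, while the median of all genes moved to -0.08 and, on log2(TPM + 1), to -0.10.

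Delayed and feedback genes also lay near equality. Of 25 delayed response genes 12 were higher and 13 lower, with a median of -0.0079 that was 0.04 with offsets for transcript length. Plk3, a polo-like kinase of stress and activity signalling, was at 27.6 CPM in both S1382A libraries and at 16.9 and 23.6 CPM in wild type (0.45 ± 0.18, adjusted p = 0.411). Plk2, a kinase that acts in synaptic scaling, was at 482 and 368 against 222 and 375 CPM, so only wild-type library 1 was low. Cdkn1a, which encodes the cell cycle inhibitor p21, was at 52.0 and 66.96 against 146 and 57.8 CPM, so only wild-type library 1 was high, and without it the log2 difference went from -0.78 to 0.04. Among 15 genes of MAPK feedback 6 were higher and 9 lower (median -0.15, and 0.05 without wild-type library 1). The lowest p there belonged to Spred1, an inhibitor of RAS activation, at 64.5 and 72.7 against 92.5 and 84.7 CPM (-0.37 ± 0.11, adjusted p = 0.335). Rasa1, a GTPase-activating protein that turns RAS off, was at 51.5 and 45.9 against 58.0 and 60.5 CPM, again with no overlap (-0.28 ± 0.14).

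The transcription factors, kinases and chromatin proteins through which activity reaches the genome formed a further list of 18 genes, of which 8 were higher and 10 lower (median -0.03, and 0.04 with offsets for transcript length). Creb1, the cyclic AMP response element binding protein, was at 45.8 and 43.1 CPM in S1382A and at 54.2 and 64.2 CPM in wild type. Both mutant libraries were below both wild-type libraries, and here the higher wild-type library was number 2 (-0.41 ± 0.17, adjusted p = 0.411, and -0.53 without wild-type library 1). Camk2b, the beta subunit of calcium/calmodulin-dependent kinase II, was at 966 and 781 against 424 and 741 CPM (0.58 ± 0.30), and 0.24 without wild-type library 1.

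A set of induced genes chosen in other neurons also had a median near 0, with a slight lean towards higher values. In the 6 libraries of the S1382E line, 253 genes were called and at least 2-fold higher after KCl, and 246 of them were tested here. Of these 137 were higher in S1382A than in wild type after KCl, 108 lower and 1 equal. Their median log2 difference was 0.06 (interquartile range -0.16 to 0.30), beside 0.0061 for all genes. An unadjusted p under 0.05 was found for 13 higher and 2 lower, where the shares over all genes were 4.73% and 6.77%, and none was called. S1382A libraries lay above both wild-type libraries for 60 of the 246 and below them for 18, where the shares over all genes were 23.8% and 19.1%. By both measures the share of higher genes was near that of all genes, and the share of lower genes was smaller. Within cultures, the median rise of these genes from basal to KCl was 1.33 and 1.21 on the log2 scale in S1382A cultures 1 and 2, and 0.95 and 1.26 in wild-type cultures 1 and 2. The smallest rise was thus in wild-type culture 1, and wild-type culture 2 lay between the mutant cultures.

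Some neuronal identity genes set wild-type library 1 apart. The labelled cell type was checked first: Slc17a7, the vesicular glutamate transporter VGLUT1 of cortical excitatory neurons, stood at 363 and 297 CPM in S1382A, at 266 CPM in wild-type library 2, and at 24.4 CPM in wild-type library 1. Camk2a, the alpha subunit of CaM kinase II, was at 623, 522 and 526 CPM in those 3 libraries and at 170 CPM in wild-type library 1. These 2 genes were chosen after their values were seen. The libraries also held much RNA of glial markers, whose sums are given below. The 15 glutamatergic neuron markers summed to 1997 and 1696 CPM in S1382A and to 1098 and 1697 CPM in wild type, with 9 higher and 6 lower (median 0.12, and 0.08 without wild-type library 1). Slc17a7 and Camk2a made up nearly all of the gap between the wild-type sums. Wild-type library 1 was the lowest for 9 of the 15 and the highest for 3, Neurod6, Neurod1 and Fezf2, named after their values were seen. Emx1, a homeobox gene of cortical excitatory neurons, was at 33.8 and 34.1 against 13.6 and 26.1 CPM (0.77 ± 0.32, adjusted p = 0.411). Neurod2, a basic helix-loop-helix factor of these cells, was at 158 and 132 against 118 and 131 CPM. On the TPM scale the glutamatergic median was -0.02.

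Channel and receptor genes showed the same split. Of 22 voltage-gated channel genes 14 were higher and 8 lower in S1382A, and wild-type library 1 was the lowest library for 20 of the 22. The list summed to 1732 and 1462 CPM in S1382A and to 1011 and 1786 CPM in wild type. The median difference was 0.13 with all 4 libraries, -0.13 without wild-type library 1 (17 of 22 lower) and 0.60 without wild-type library 2. Its direction thus depended on which wild-type library was kept. With offsets for transcript length, fitted to all libraries, it was 0.30, with 20 of 22 higher. Glutamate receptor and scaffold genes summed to 2841 and 2479 against 1792 and 2838 CPM, with 14 of 23 higher (median 0.08, but -0.01 without wild-type library 1 and -0.05 on the TPM scale). With offsets for transcript length their median was 0.23, with 18 of 23 higher. Grin1, the obligatory NMDA receptor subunit, was at 310.4 and 269 against 118 and 256 CPM. Kcnq3, a subunit of the M-type potassium channel, went the other way, at 24.6 and 18.7 against 33.6 and 30.8 CPM with no overlap (-0.57 ± 0.19, adjusted p = 0.373). In bulk RNA, fewer cells of a type and less RNA of that type per cell cannot be told apart.

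The groups of genes with the largest differences were those of meningeal and of endothelial and mural cells, of dividing cells, of the interferon response and of amino acid stress, all lower in S1382A. Wild-type library 1 was the highest library for most members of each group except the endothelial and mural markers, where it was the highest for 5 of 11. The plot of list levels shows all of these groups at its lower end.

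**Figure D2:**
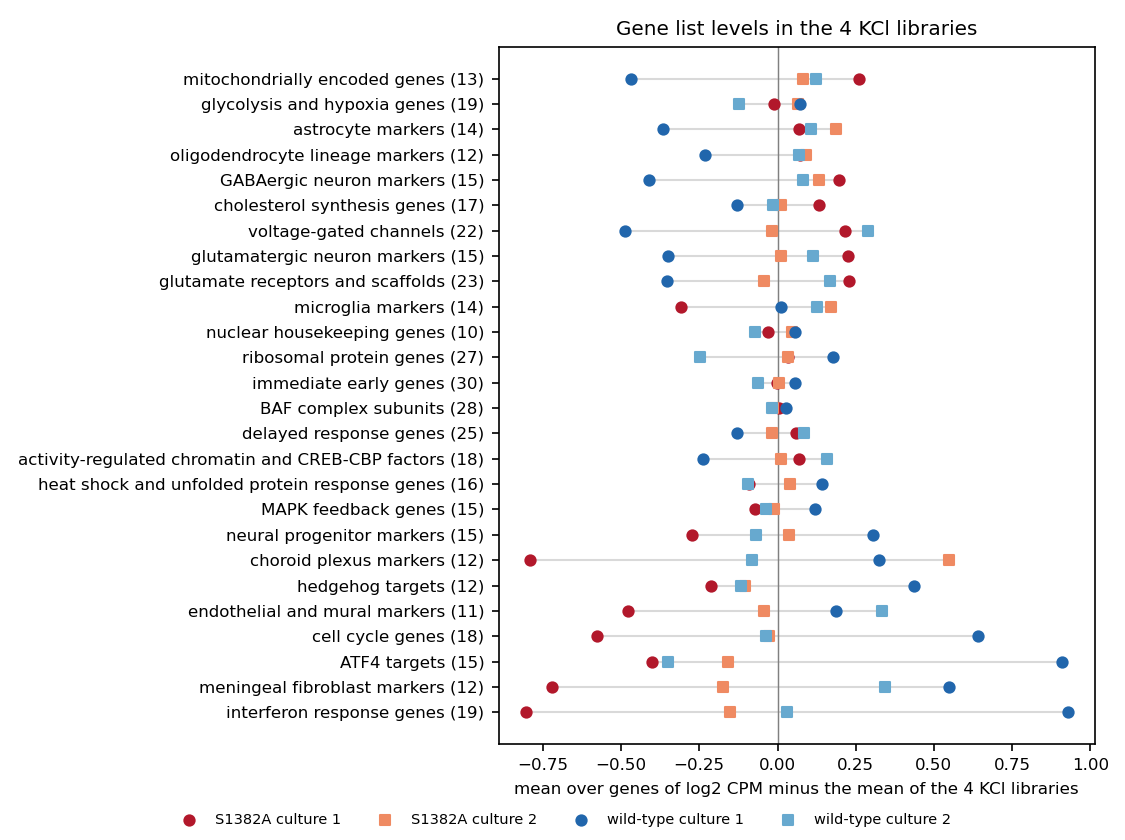
Mean over the tested members of each gene list of log2 CPM, minus the mean of the 4 KCl libraries (members in parentheses), ordered by the median difference between S1382A and wild type. Wild-type culture 1 lies farthest to the right for interferon, ATF4, cell cycle and hedgehog genes and farthest to the left for mitochondrial, channel and neuronal genes.

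Markers of meningeal fibroblasts, the collagen-producing cells of the brain's coverings, were lower in S1382A by both wild-type libraries. All 12 measured genes were lower, 10 of the 12 with no overlap between the groups and 8 at an unadjusted p under 0.05, and the list summed to 216 and 269.9 CPM in S1382A against 491 and 360.3 CPM in wild type. The median log2 difference was -0.88 with all libraries and -0.61 without wild-type library 1, when all 12 were still lower, and -0.87 at basal. Dcn, a small proteoglycan of the extracellular matrix, was at 10.3 and 9.83 against 15.4 and 19.1 CPM (-0.78 ± 0.22, adjusted p = 0.33). Tbx18, a T-box factor of mural and meningeal cells, was at 1.25 and 1.42 against 2.11 and 3.35 CPM (-1.03 ± 0.29). Both were highest in wild-type library 2. Lum, another matrix proteoglycan, was at 1.25 and 2.67 against 7.20 and 6.01 CPM (-1.75 ± 0.50), and Igf2, a growth factor made by the leptomeninges, at 89.5 and 96.3 against 209 and 137 CPM (-0.90 ± 0.27, and -0.56 without wild-type library 1).

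Among endothelial and mural markers, some endothelial genes were near 0 and others were not. Of 14 genes on that list 11 passed the filter on low counts. The endothelial genes Cldn5 and Tek, named after their values were seen, were at most 0.2145 CPM in all 4 libraries. Of the 11, 10 were lower in S1382A (median -0.45, and -0.37 without wild-type library 1), 3 of them with no overlap. Most of the list's sum was Acta2, the smooth muscle actin that other contractile cells also make, at 207 and 436 CPM in S1382A and 689 and 355 CPM in wild type, with overlap (named after its values were seen). Cdh5, the endothelial cadherin, was at 0.534 and 1.38 against 4.45 and 3.39 CPM (-2.03 ± 0.58, adjusted p = 0.335). Kdr, a VEGF receptor, was at 7.65 and 12.1 against 47.6 and 11.7 CPM, so that wild-type library 1 alone was high. Choroid plexus markers followed no genotype, with sums of 258 and 693 CPM in S1382A and 889 and 414 CPM in wild type. Red blood cell genes were near 0, at a sum of 2.07 to 2.22 CPM in each library. The part that other cell types play in the differences between genotypes was not tested.

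Genes of cell division and of neural progenitors were lower in S1382A as well. All 18 cell cycle genes were lower, with a median of -0.58, and the list summed to 661 and 931 CPM in S1382A and to 1528 and 975 CPM in wild type. Top2a, the topoisomerase that untangles chromosomes in mitosis, was at 80.3 and 105 against 230.0 and 146 CPM (-1.02 ± 0.29, adjusted p = 0.335). Mki67, the proliferation antigen Ki-67, was at 101 and 128 against 261 and 169 CPM (-0.91 ± 0.28), and the kinetochore gene Cenpf at 23.97 and 37.1 against 68.5 and 48.2 CPM (-0.94 ± 0.25). In these 3 genes the groups did not overlap, as in 6 of the 18, and without wild-type library 1 the differences were -0.65, -0.56 and -0.66. Wild-type library 1 was the highest for all 18, and without it the median was -0.15, with 16 lower. Of 15 progenitor markers 12 were lower (median -0.20, and -0.03 without wild-type library 1), with sums of 2105 and 2867 against 4579 and 2750 CPM. The progenitor marker with the lowest p was Ptprz1, a receptor phosphatase of radial glia, at 446 and 440.3 against 586 and 595 CPM (-0.41 ± 0.14, adjusted p = 0.374). Hedgehog targets gave 11 of 12 lower (median -0.38), which became 7 of 12 and -0.04 without wild-type library 1.

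Markers of the other cell types of the cortex were slightly higher in S1382A. GABAergic neuron markers gave 10 of 15 higher (median 0.16), with sums of 990 and 946 CPM in S1382A and 825 and 946 CPM in wild type. Astrocyte markers gave 8 of 14 higher (median 0.17) and oligodendrocyte lineage markers 7 of 12 (median 0.17), and without wild-type library 1 these medians were 0.08, 0.06 and 0.12. The astrocyte markers summed to 4471 and 4977 CPM in S1382A and to 3534 and 4570 CPM in wild type. Those of the oligodendrocyte lineage summed to 881 and 857 against 772 and 782 CPM. Sums of different lists do not give shares of cells. Microglia markers gave 9 of 14 higher (median 0.08, but -0.06 without wild-type library 1, -0.06 on log2(TPM + 1) and -0.02 with offsets for transcript length). Heat shock and unfolded protein response genes, which protect folding proteins, gave 5 of 16 higher (median -0.07, but 0.12 without wild-type library 1). For 10 housekeeping genes the median was 0.06, and -0.03 with library totals.

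Interferon response genes, which antiviral signalling switches on and many of which carry a promoter element called the ISRE, were the list with the lowest median when all 4 libraries were used. Without wild-type library 1, and on log2(TPM + 1), meningeal markers were lower. Of 19 measured members 18 were lower and Mx2 differed by 0.0044, with a median of -0.95, and the list summed to 73.5 and 101 CPM in S1382A and to 177 and 110 CPM in wild type. Ifit2, an RNA-binding antiviral protein, was at 10.9 and 13.8 against 24.4 and 18.1 CPM (-0.78 ± 0.22, adjusted p = 0.335). Usp18, which removes the ubiquitin-like protein ISG15 from targets, was at 0.356 and 0.517 against 2.31 and 1.16 CPM (-1.98 ± 0.67), and Irf7, a transcription factor that amplifies interferon production, at 0.578 and 0.69 against 1.47 and 1.46 CPM (-1.20 ± 0.43). In these 3 genes both mutant libraries lay below both wild-type libraries, as in 10 of the 19. Wild-type library 1 was the highest for 18 of 19, and without it the median was -0.37, with 16 lower and 2 higher.

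The element itself shows which of these genes share a promoter letter pattern. Of the 15 members with an entry in the RefSeq promoter table (GRCm38.p6), 8 held a form of the ISRE (GAAA, any 2 bases, GAAA) on either strand within 250 bases before the start site (53.3%). The same was true of 390 of 12338 tested genes (3.16%) and of 2.98% of all 32851 windows, and overlapping matches in 1 promoter were counted once. The match is a description of letters and not a measured site. Each window below has 1 match in capitals, and those of Isg15 and Ifit1 hold others in small letters. Windows of 3 members follow 5′ to 3′ on the strand of the gene, with the match in capitals (read as its reverse complement where it lies on the opposite strand): Isg15, which encodes a ubiquitin-like modifier, at chr4:156200856-156200915 (minus strand), Ifit1 at chr19:34640779-34640838 (plus strand) and Ifit3 at chr19:34583382-34583441 (plus strand).
Isg15: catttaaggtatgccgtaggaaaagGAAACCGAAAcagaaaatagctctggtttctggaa
Ifit1: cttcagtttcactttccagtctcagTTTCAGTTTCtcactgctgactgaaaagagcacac
Ifit3: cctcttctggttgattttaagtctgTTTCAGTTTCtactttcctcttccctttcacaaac
The genes with these windows, chosen for the match after their values were seen, were at 0.534 and 0.733 against 2.39 and 0.686 CPM (Isg15), at 0.623 and 0.517 against 2.78 and 0.472 CPM (Ifit1) and at 0.978 and 1.90 against 3.06 and 2.57 CPM (Ifit3). Wild-type library 1 was the high one for Isg15 and Ifit1, where wild-type library 2 lay at the level of the mutant, while for Ifit3 both wild-type libraries were above both mutant libraries.

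Targets of ATF4, the factor that amino acid shortage and other stresses of the integrated stress response switch on, were highest in wild-type library 1. All 15 were lower in S1382A (median -0.60), with sums of 1016 and 1109 CPM in S1382A, 1768 CPM in wild-type library 1 and the lowest sum of all in wild-type library 2. Wild-type library 1 was the highest for all 15, and without it 13 were higher and 2 lower, at a median of 0.08. Trib3, a pseudokinase induced by this pathway, was at 0.534 and 0.949 against 8.03 and 0.558 CPM. Chac1, which degrades glutathione, was at 3.07 and 3.19 against 14.9 and 2.87 CPM. Slc7a11, the cystine transporter, was 1 of 2 members with both wild-type libraries above both mutant libraries, at 19.5 and 17.5 against 31.7 and 31.1 CPM (-0.76 ± 0.25, adjusted p = 0.371, and -0.75 without wild-type library 1). The other was Aldh1l2, a mitochondrial folate enzyme, at 33.7 and 31.4 against 62.9 and 35.7 CPM, where the difference without wild-type library 1 was -0.13. The letters TGATGNAA, the core of the element that ATF4 binds with its partners, were found on either strand in 4 of 13 members with a promoter entry (30.8%), against 2.51% of tested genes and 3.45% of all windows. The windows of Slc7a11, at chr3:50443647-50443704 (minus strand), and Chac1, at chr2:119351024-119351081 (plus strand), show a match in capitals, that of Chac1 on the opposite strand. The Slc7a11 window also holds another match on the opposite strand, left in small letters.
Slc7a11: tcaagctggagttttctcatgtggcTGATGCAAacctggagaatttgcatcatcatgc
Chac1: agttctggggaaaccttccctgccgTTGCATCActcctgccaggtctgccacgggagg
These 2 genes carry the same letters and differed in how wild-type library 2 stood to the mutant.

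Among the lists that were higher in S1382A were those of lipid and sugar metabolism, whose medians changed little without wild-type library 1. Of 17 cholesterol synthesis genes 13 were higher and 4 lower (median 0.14, and 0.13 without wild-type library 1), 9 with no overlap and 4 at an unadjusted p under 0.05. They summed to 3680 and 3319 CPM in S1382A and to 3030 and 3332 CPM in wild type, so the sums overlapped. Fdft1, squalene synthase, was at 242 and 224 against 179 and 194 CPM (0.32 ± 0.10, adjusted p = 0.367). Nsdhl, a sterol dehydrogenase of the pathway, was at 72.2 and 67.3 against 53.4 and 59.5 CPM (0.30 ± 0.10), and Mvd, mevalonate decarboxylase, at 68.1 and 59.4 against 44.4 and 50.8 CPM (0.42 ± 0.14). Of 19 glycolysis and hypoxia genes 14 were higher (median 0.17, and 0.15 without wild-type library 1), 11 with no overlap. Wild-type library 1 was the lowest library for 10 of the 19 and the highest for 6. Among the 17 cholesterol synthesis genes it was the lowest for 9 and the highest for 2. Pfkl, a phosphofructokinase, was at 72.5 and 66.9 against 50.1 and 55.3 CPM (0.40 ± 0.12, adjusted p = 0.335), and Ldha, lactate dehydrogenase A, at 389.7 and 372 against 292 and 317 CPM (0.32 ± 0.11). These differences were small, and on the TPM scale the medians of both lists were 0.0092 and 0.0063, with all genes at -0.10.

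All 13 genes of the mitochondrial genome were higher (median 0.24), but wild-type library 1 was the lowest for 12 of them the median without it was 0.02, and 10 of 13 were higher on the TPM scale or with offsets for transcript length. Their sums were 79840 and 70620 CPM in S1382A and 56460 and 74610 CPM in wild type. The member with the lowest p was mt-Co2, a subunit of cytochrome c oxidase, at 2876 and 1730 against 1472 and 1519 CPM (0.62 ± 0.22, adjusted p = 0.388). Ribosomal protein genes had a median of 0.04, with 21 of 27 higher. It was 0.27 without wild-type library 1, the highest library for 24 of the 27, and -0.16 without wild-type library 2, so the direction depended on which wild-type library was kept. With library totals alone their median was -0.05, and with offsets for transcript length it was -0.06.

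Among single genes, the lowest p values belonged to genes that were lower in S1382A. By the naming rule these were the 15 with the lowest p, no overlap and at least 1 CPM on average, and their log2 differences ran from -0.58 to -1.51 at an adjusted p of 0.299 in edgeR. DESeq2 called 14 of these 15, all but Adamts12. Evi5 (chromosome 5, 107744795 to 107875107, GRCm38), a regulator of RAB11 and of cytokinesis, was at 39.5 and 46.0 CPM in S1382A and at 68.7 and 69.2 CPM in wild type (-0.69 ± 0.10, 1.61-fold lower). Adamts12 (chromosome 15, 11064790 to 11349231), a secreted metalloprotease, was at 1.47 and 1.81 against 4.97 and 4.38 CPM (-1.51 ± 0.24, 2.84-fold lower). Dmd (chromosome X, 82948870 to 85206141), which encodes dystrophin, was at 24.8 and 29.0 against 53.8 and 43.8 CPM (-0.86 ± 0.15). In each of them both wild-type libraries lay above both mutant libraries, as the naming rule required.

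Eif2ak2 (chromosome 17, 78852564 to 78882573) encodes PKR, a kinase that senses double-stranded RNA and is itself induced by interferon. It was at 8.36 and 10.8 CPM in S1382A and at 19.1 and 19.0 CPM in wild type (-0.99 ± 0.18, 1.99-fold lower), and the same difference was found without wild-type library 1. Rb1, the retinoblastoma tumour suppressor, was at 35.1 and 31.9 against 51.2 and 50.4 CPM (-0.60 ± 0.11), and Lrp6, a Wnt co-receptor, at 39.4 and 42.8 against 64.5 and 63.2 CPM (-0.64 ± 0.12). Tnpo1, a nuclear import receptor, was at 79.0 and 86.2 against 128 and 127 CPM. The others were N4bp2, Cpne3, Dock11, Zzz3, Syne2, Washc4, Cep192 and Trappc8, from -0.58 to -0.94. All 15 were also lower at basal (median -0.38, 13 at an unadjusted p under 0.05), in libraries that share cultures with these if the numbers link them. In S1382E neurons after KCl 2 of the 15 were lower than their wild type (median 0.15).

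The 15 genes that were higher by the same rule differed by 0.35 to 1.17 on the log2 scale, at adjusted p values of 0.299 to 0.323. Ncald (chromosome 15, 37366175 to 37792570), which encodes the neuronal calcium sensor neurocalcin delta, was at 284 and 247 CPM in S1382A and at 173 and 196 CPM in wild type (0.53 ± 0.12, 1.44-fold higher). DESeq2 called Ncald and Bex2 among the 15, and Bsg, named after its value was seen, was its other call of a higher gene. Nenf, the secreted neurotrophic factor neudesin (chromosome 1, 191306789 to 191318194), was at 38.7 and 42.0 against 26.7 and 28.9 CPM (0.54 ± 0.13, 1.45-fold). Cidea, a lipid droplet protein, was at 1.91 and 1.55 against 0.676 and 0.858 CPM (1.17 ± 0.26). The nuclear-encoded respiratory genes Atp5h, Ndufb6 and Ndufb8 were among them, at 116 and 130 against 84.0 and 96.0 CPM for Atp5h, a subunit of ATP synthase (0.45 ± 0.11), 44.3 and 41.1 against 30.8 and 34.3 CPM for Ndufb6, a subunit of complex I (0.39 ± 0.10), and 117 and 108 against 83.2 and 87.6 CPM for Ndufb8 (0.40 ± 0.11). Acat2, an acetyl-CoA acetyltransferase at the head of the mevalonate pathway, was at 157 and 134 against 99.4 and 111 CPM (0.47 ± 0.12). Nme2, a nucleoside diphosphate kinase, was at 160 and 149 against 119 and 118 CPM, and its close paralog Nme1 may share reads with it. The others were Znhit3, Map4k1, Gipr, Rab4b, Bex2, Ankrd35 and Dcst1. All 15 were higher at basal too (median 0.40, 11 at an unadjusted p under 0.05), and 7 were higher in S1382E neurons (median -0.04).

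**Figure D3:**
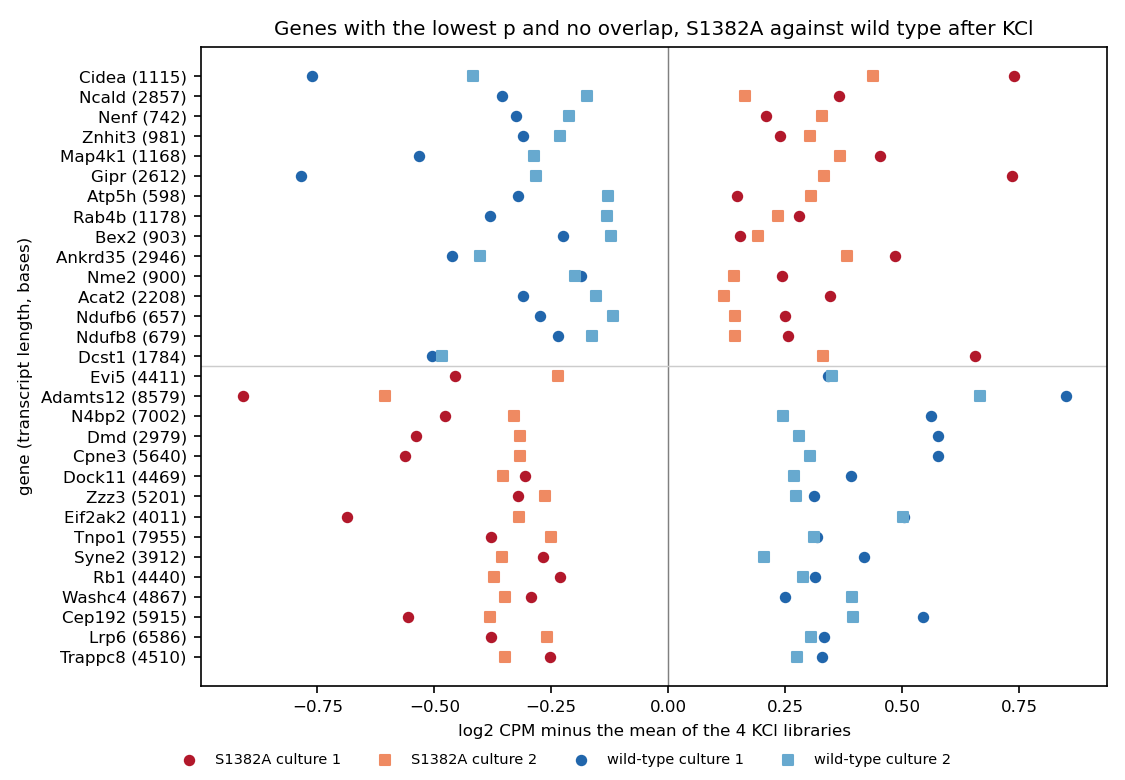
Log2 CPM in each KCl library minus the mean of the 4, for the 15 genes higher and the 15 lower in S1382A with the lowest p and no overlap (transcript length in bases in parentheses). By this choice both wild-type cultures lie on the other side of both S1382A cultures in every row, and the genes lower in S1382A are mostly the longer ones.

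The 2 sets differed in transcript length. The 15 genes lower in S1382A had transcripts of 2979 to 8579 bases (median 4867) and the 15 higher ones of 598 to 2946 bases (median 1115), against a median of 2621 over 14543 genes. Over those genes the log2 difference and the length had a Spearman rho of -0.21, a description across genes that share the same 4 libraries. Genes with transcripts up to 1000 bases had a median difference of 0.11, and 13.2% of them were higher and 0.665% lower at an unadjusted p under 0.05. Genes over 6000 bases had a median of -0.17, with 0.0909% higher and 21.8% lower. Without wild-type library 1 the trend was steeper, from 0.19 to -0.22 (rho -0.42), and without wild-type library 2 it was flatter, from 0.06 to -0.10 (rho -0.07).

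**Figure D4:**
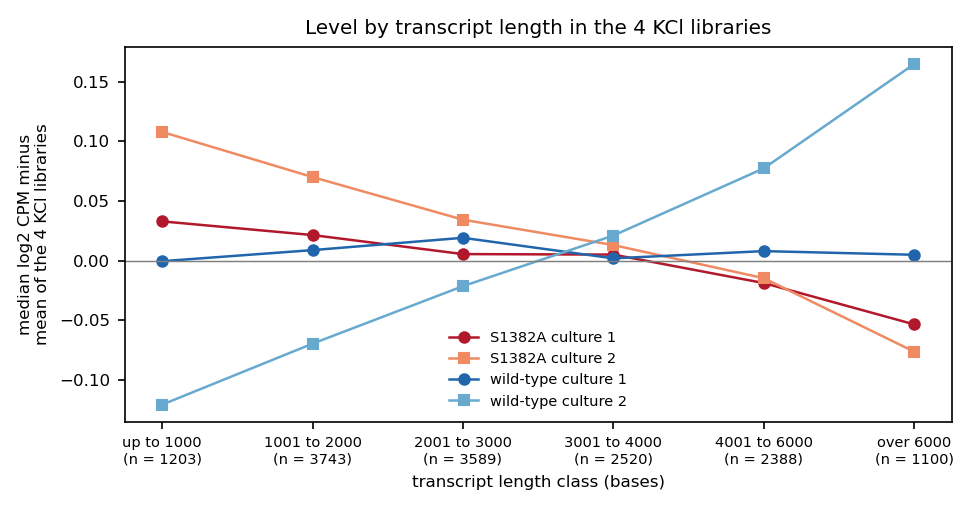
Median over genes of log2 CPM minus the mean of the 4 KCl libraries, for 6 classes of transcript length (number of genes in parentheses), 1 line per library. Wild-type culture 2 runs upward from -0.12 to 0.17 with length, both S1382A cultures run downward, and wild-type culture 1 is nearly flat.

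By library, the level of short against long transcripts ran from -0.12 to 0.17 in wild-type library 2, from 0.03 to -0.05 in S1382A library 1, from 0.11 to -0.08 in S1382A library 2, and from -0.00055 to 0.0048 in wild-type library 1. In the basal libraries wild-type library 2 (-0.26 to 0.21) and S1382A library 1 (-0.07 to 0.14) ran upward, and S1382A library 2 (0.01 to -0.06) and wild-type library 1 (0.05 to -0.06) ran downward. The basal difference between genotypes ran the same way as after KCl, from 0.08 to -0.06 (rho -0.11). In S1382E neurons after KCl the difference ran the opposite way (rho 0.20). With an offset for transcript length fitted in each library, Evi5 was at -0.63, Adamts12 at -1.33, Dmd at -0.85, Eif2ak2 at -0.94, Pbrm1 at -0.53 and Nenf at 0.42, while Ndufb6 and Bex2 moved to 0.26 and 0.24. Under that setting, too, 0 genes were called, with 2031 at an unadjusted p under 0.05. What in the cultures or libraries goes with transcript length was not tested.

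The 78 genes that DESeq2 called as lower were of this long kind, with a median transcript length of 5292 bases and 76.9% of them over 4000. Their median log2 difference was -0.66, and -0.60 without wild-type library 1. For all 78 both S1382A libraries lay below both wild-type libraries, so leaving out wild-type library 1 could hardly change their direction. All were lower at basal (median -0.38), and 12 of 78 were lower in S1382E neurons.

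Of the 5 lists that were lowest after KCl, 4 were also low at basal, and no difference in the KCl response passed the test. At basal edgeR called 0 of 17732 genes between S1382A and wild type (0%), with 1279 at an unadjusted p under 0.05, and DESeq2 called 0. For the difference between genotypes in the response to KCl edgeR called 0 (0%), with 122 genes at an unadjusted p under 0.05, and DESeq2 called 0. The immediate early genes had a median response difference of 0.21, with lower basal values in S1382A for 23 of 30 (median -0.23). For Fos the basal libraries were at 5.91 and 7.53 CPM in S1382A and at 11.2 and 6.06 CPM in wild type, so that wild-type culture 1 was again the high one. For Arc the basal values were 1.70 and 1.84 against 2.98 and 2.24 CPM, and its response difference was 0.68 ± 0.29. The meningeal, cell cycle, interferon and ATF4 lists had basal medians of -0.87, -0.48, -0.85 and -0.35, next to -0.88, -0.58, -0.95 and -0.60 after KCl. Endothelial and mural markers had a basal median of -0.03, with 7 of 11 lower, next to -0.45 after KCl, and a median response difference of -0.31.

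S1382E neurons after KCl, compared with their own wild type, gave 0 called genes with edgeR (0%), 240 at an unadjusted p under 0.05, and 1 called by DESeq2. Of the 5 lists that were lowest in S1382A, the medians there were -0.02 for meningeal markers, -0.02 for cell cycle genes, 0.03 for interferon genes, 0.05 for ATF4 targets and 0.24 for endothelial and mural markers. Choroid plexus markers, at -0.30 in S1382A, were at -2.59 there. Pbrm1 differed by 0.03 and Evi5 by 0.12. That wild type is 1 library, so its spread is assumed and not measured, and the difference between the 2 mutants was not tested.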

How the data were processed

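RNA-seq was made from total RNA of mouse cortical neurons in 14 libraries. The authors quantified reads with kallisto 0.43.1 on GRCm38 (mm10), per the submitters' processing notes, and deposited estimated counts and TPM values per gene symbol and per transcript. Estimated counts share ambiguous reads among transcripts and need not be whole (66% of nonzero values were not). The deposited TPM values are divided by transcript length. Those per gene were used only for limma, and those per transcript gave the weights for the transcript length of each gene. Whether counting used strand is not stated, so overlapping antisense genes may not be separated.

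Rounded counts per gene were tested in R 4.3.3 by edgeR 4.0.16: filterByExpr left 17732 of 52459 symbols, libraries were scaled by TMM, and 8 group means were fitted to all 14 libraries (6 residual degrees of freedom). The S1382E wild type, with 1 library per treatment, was assumed to vary like the other groups. P-values were adjusted by Benjamini-Hochberg over all genes and called under 0.05. CPM are counts scaled to the TMM library size, and errors of log2 differences are standard errors of the model. An exact permutation test of 2 against 2 libraries cannot go below p = 0.333 and was not used. Alternatives were DESeq2 1.42.0, limma 3.58.1 on log2(TPM + 1) and log2(TPM + 0.1) for symbols with at least 1 TPM in 2 libraries, other scalings and filters, fewer libraries, a replicate block and leaving out each library. Scripts were checked on simulated counts.

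Genes were named by rule: Smarca4; up to 15 genes a direction with the lowest p, no overlap and at least 1 CPM on average; up to 10 a direction without wild-type library 1; up to 4 members of each of 28 lists with the lowest p; and Fos, Fosb, Npas4, Arc, Egr1 and Nr4a1. Not every gene of the rule is printed. Sex-linked and unnamed genes were left out except where given as a check, and exceptions are marked or shown for their sequence. The members and lists were chosen with earlier results of these data known. Coordinates are from GENCODE M21 (GRCm38), promoter sequences from RefSeq (GRCm38.p6), and transcript lengths are weighted by abundance. How well kallisto divides reads among close paralogs was not measured.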

Additional observations from a re-analysis of the deposited data

How the results depend on the processing

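Of 1554 values of 92 named genes under the alternatives, 1470 kept direction and side of the threshold. Another 42 kept direction and passed it, and 42 reversed. Of 476 list medians, 54 moved by more than the spread between libraries of a group. That spread includes wild-type library 1, so a median can change sign without this library and not count as moved. For voltage-gated channels it went from 0.13 to -0.13, within that spread. After KCl DESeq2 called 81 genes, limma on log2(TPM + 1) called 3, and DESeq2 called 1 in S1382E. Leaving out a library gave 0 to 1 calls: 1 without S1382A library 2 (an unnamed gene model) and 1 without wild-type library 2 (Rasd1, 3.62). The replicate block gave 0 calls (1742 at an unadjusted p under 0.05). The labels share only a number: deviations of same-numbered S1382A and wild-type libraries correlated at -0.38 after KCl and -0.39 at basal. Those of same-numbered KCl and basal libraries correlated at 0.63 in S1382A and 0.82 in wild type. The main test treated these libraries as independent. A crossed pairing, added after seeing the data and joining libraries of like sex, called 221 (20 higher, 201 lower). Leaving out wild-type culture 1 entirely and the length offsets were also added after seeing the data.

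Reversals on the log2 scale follow, and the cause was not tested. Library totals put Smarca4 at -0.0019, Nr4a1 at -0.069 and Mx2 at -0.086, and RLE put Mx2 at -0.000195. On TPM + 1 and TPM + 0.1, Smarca4 was at -0.047 and -0.048, Fosb at -0.028 in both, Arc at -0.028 and -0.029 and Nr4a1 at -0.11 in both. The median of all genes also moved, to -0.079 with library totals and to -0.10 and -0.12 on these TPM scales. With fewer libraries, Nr4a1 was at -0.0073 (8 libraries of the line) and -0.0038 (the 4 KCl libraries), and Mx2 at -0.023 (8 libraries). Length offsets put Npas4 at 0.026, Nr4a1 at -0.00031 and Mx2 at -0.047. Without wild-type culture 1 entirely, Npas4 was at 0.078, Fos at 0.085, Cdkn1a at 0.042, Ifit1 at 0.27, Trib3 at 0.41, Chac1 at 0.12, Neurod6 at 0.11 and Fezf2 at 0.28. Leaving out 1 library at a time gave ranges of -0.0011 to 0.15 for Smarca4, -0.087 to 0.077 for Npas4, -0.19 to 0.085 for Fos, -0.13 to 0.32 for Arc, -0.090 to 0.14 for Nr4a1, -1.30 to 0.041 for Cdkn1a, -2.28 to 0.27 for Ifit1, -3.42 to 0.41 for Trib3, -2.25 to 0.12 for Chac1, -0.42 to 0.11 for Neurod6, -0.42 to 0.28 for Fezf2 and -0.32 to 0.44 for Mx2. With 2 libraries a group and 22.9 counts behind 1 CPM, genes near that level, such as Ifit1 and Mx2, were measured with wide error.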

Other observations

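Each gene of a pair of neighbouring apolipoprotein L genes, taken alone, separated the genotypes in all 8 libraries of the line. The pair was chosen after its values were seen. Apol7e (chromosome 15, 77698857 to 77719285, GRCm38) had 0 estimated counts in each of the 4 S1382A libraries and 17, 24, 19 and 15.1 in the 4 wild-type libraries, at least 25-fold higher in wild type against a limit of 3 counts over the group. Apol7b (chromosome 15, 77422209 to 77447492) had 23, 26, 21 and 21 counts in S1382A and 0, 0, 0 and 7.88 in wild type. The counts are low, and these genes are close paralogs among which kallisto may move reads. Over genes with a mean of at least 1 CPM, all S1382A libraries lay above all wild-type libraries, KCl and basal together, for 1507 of 14586 (10.3%) and below them for 917 (6.29%). With a gap of at least 1.5-fold between the nearest libraries, 1 gene was higher (Cidea) and 3 were lower (Adamts12, Kif15 and Rab39), of which Kif15 and Rab39 were named after their values were seen.

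Genes named only by their p without wild-type library 1 included Mob1b, a Hippo pathway adaptor, at 18.1 and 19.4 CPM in S1382A and 24.5 and 31.8 in wild type after KCl. Tmem254c was at 5.65 and 6.42 against 2.70 and 0 CPM, and it has near-identical copies, so its counts are uncertain.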
